A study of Homo sapiens with 9 samples.

Results

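The genes described here are ATG12 and 9 other genes of the autophagy conjugation machinery: ATG3, ATG4B, ATG5, ATG7, ATG10, ATG16L1, MAP1LC3B, GABARAPL1 and GABARAPL2. They were found by symbol in the 9 count tables, where all 10 are listed among 42785 genes. ATG12 was chosen for its difference between the DCC and Nrp1 pulldowns, so its levels are given as a description without a test, and the other 9 were chosen for their role beside it.

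RNA that came down with the guidance receptors DCC or Neuropilin-1 (Nrp1) was sequenced from SH-SY5Y cells, a human neuroblastoma line, together with RNA of the whole lysate. The groups are DCC-IP (mouse antibody to DCC), Nrp1-IP (rabbit antibody to Nrp1) and Input (no pulldown), with 3 libraries each. All came from the same line in standard serum medium, with no other treatment in the labels, and each pulldown used antibody-coupled magnetic beads. The study's methods state in general that experiments used independent biological replicates, but the labels do not say how these libraries were replicated. If they came from 1 culture, p-values measure only technical spread between libraries. The RNA was reverse-transcribed and amplified by PCR with a single-cell protocol, and no control IgG library was analysed here. The comparisons ask which mRNAs associate with one receptor rather than the other, and which are over- or under-represented in a pulldown relative to the lysate.

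Autophagy encloses cytoplasm in a double membrane, the autophagosome, which then fuses with the lysosome. A pair of ubiquitin-like conjugation systems drives the growth of this membrane. In the first, ATG7 (the E1-like enzyme) activates ATG12 and ATG10 (E2-like) joins it to ATG5, and the product binds ATG16L1. In the second, ATG4 proteases trim proteins of the LC3 and GABARAP families, and ATG7, ATG3 (E2-like) and the ATG12-ATG5-ATG16L1 complex attach them to phosphatidylethanolamine. In neurons, autophagosomes form in distal axons and are carried towards the cell body.

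The libraries held 8838296 to 11055895 reads on genes. The floor of detection was set at 3 counts, which is 0.271 to 0.339 CPM (read counts scaled to a common library size). Floors cover counting error only, since PCR copies are not independent molecules. Genes over this floor numbered 4674, 7410 and 9177 in DCC-IP replicates 1 to 3, against 6019, 8980 and 8856 in Input, while Nrp1-IP had 7395, 7685 and 9720. MAP1B alone took 40.3% to 52.1% of the counts of a DCC-IP library, against 1.58% to 2.44% in Nrp1-IP and 1.87% to 2.25% in Input. Of 12 genes typical of sympathoadrenal neuroblastoma, 10, 10 and 11 were over the floor in DCC-IP, Nrp1-IP and Input, but TH, the enzyme that starts catecholamine synthesis, had no count in any library. Their summed counts per library were 2434 to 4304 in Input, 11419 to 15847 in Nrp1-IP and 18836 to 36342 in DCC-IP. Markers of other cell types, 11 in the tables, summed to 2 to 40 counts per library, and 10, 9 and 10 of them had no count in the 3 groups. Levels below are counts scaled by TMM (a normalization that assumes most genes are alike between libraries) and given as CPM unless stated. Transcript lengths were not used, so a higher count of one gene than of another is a matter of read depth and not a level per length.

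ATG12 held nearly all reads of the machinery, was highest in Nrp1-IP and was lowest in DCC-IP. Its raw counts were 4102, 4425 and 4302 in DCC-IP replicates 1 to 3. They were 54934, 63182 and 69498 in Nrp1-IP. In Input they were 18630, 17378 and 11216. Each Nrp1-IP library lay above each Input library, and each Input library above each DCC-IP library. Ranked by counts within its own library, ATG12 stood at 270, 235 and 294 in DCC-IP, at 35, 31 and 26 in Nrp1-IP, and at 127, 125 and 166 in Input.

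**Figure D1:**
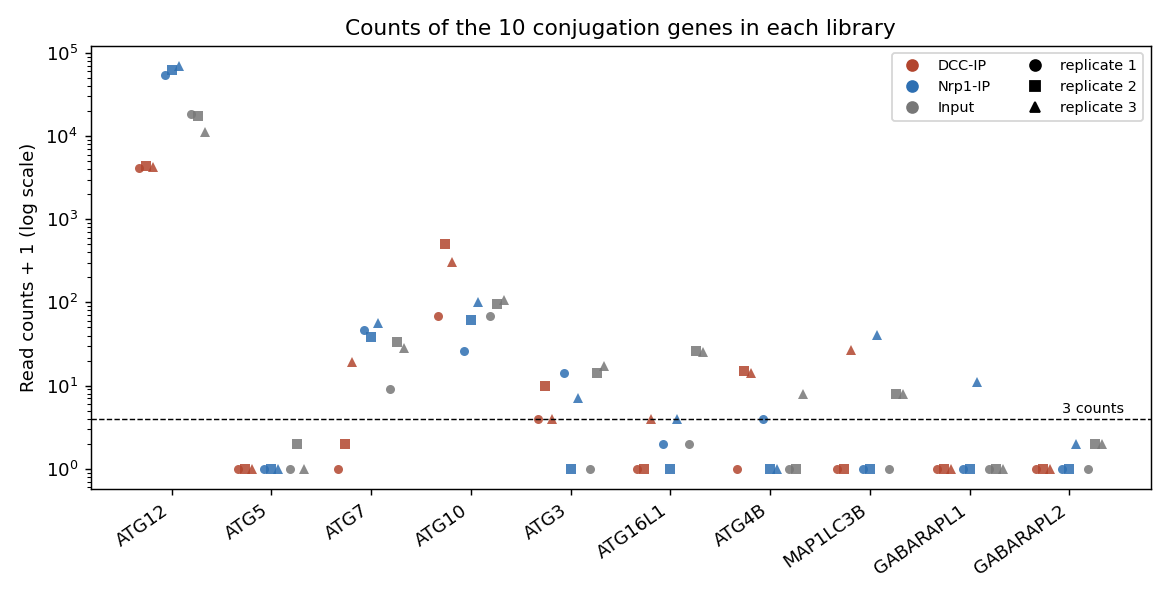
Raw read counts plus 1 of the 10 conjugation genes (x axis) in each library on a log scale (y axis), with colour for the group, symbol shape for the replicate and a dashed line at 3 counts. ATG12 lies between 4102 and 69498 counts, while no other gene exceeds 500 counts and ATG5, GABARAPL1 and GABARAPL2 are at 0 in most libraries.

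After scaling, the ATG12 level was 372 ± 84.6 CPM in DCC-IP, 1962 ± 506 CPM in Input and 5390 ± 373 CPM in Nrp1-IP (SD over 3 libraries). Neighbours in this order were separated by more than their spread. The log2 fold change was 3.71 (standard error, SE, 0.30) for Nrp1-IP over DCC-IP, a 13.1-fold higher level in Nrp1-IP. It was 1.54 (SE 0.26) for Nrp1-IP over Input, 2.92-fold higher, and -2.30 (SE 0.34) for DCC-IP over Input, 4.92-fold lower. The comparisons share libraries, so they are not separate pieces of evidence. These fitted values come from edgeR on the 6 libraries of each comparison, and no p is given because ATG12 was picked from these data.

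The size of the DCC-IP values depends on how the MAP1B reads are treated, while the order of the groups does not. Scaled by library size alone, ATG12 was at 373, 400 and 415 CPM in DCC-IP, at 5657, 6282 and 6354 CPM in Nrp1-IP, and at 1746, 1728 and 1269 CPM in Input. With MAP1B left out of the library size, the DCC-IP libraries rose to 740, 836 and 695 CPM. The Nrp1-IP libraries were then at 5798, 6429 and 6456 CPM, and the Input libraries at 1785, 1768 and 1293 CPM. The groups did not overlap under any of the 3 scalings.

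**Figure D2:**
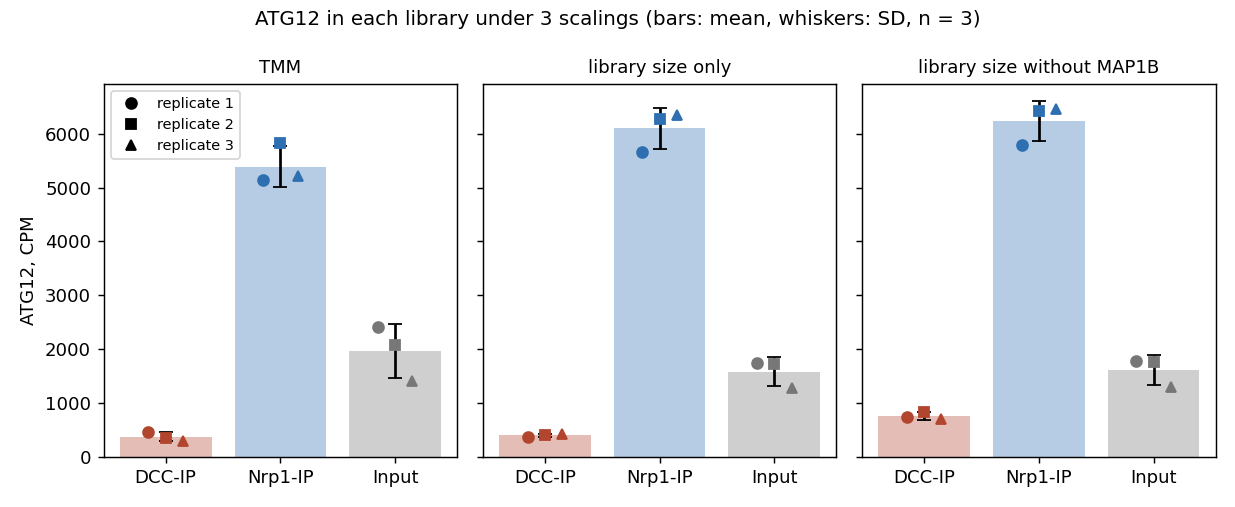
ATG12 in CPM (y axis) in each group (x axis) after TMM scaling (left), by library size (middle) and by library size without MAP1B (right), with bars for the mean, whiskers for the SD (n = 3) and a point per library. In each panel the Nrp1-IP points lie above the Input points and the Input points above the DCC-IP points.

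With MAP1B left out of the library size, the log2 fold change of DCC-IP over Input was -1.09, and the median of all genes in that comparison was 1.37 instead of 0.16. Relative to the median of all genes, ATG12 was at -2.45 in that fit and at -2.46 with TMM. For Nrp1-IP over DCC-IP the same scaling gave 3.04, which is 4.03 relative to the median of all genes, against 3.71 and 3.98 with TMM. The Nrp1-IP over Input value lay between 1.36 and 1.95 across the scalings, filters, tools and designs tried. Leaving out any 1 library kept the log2 fold change between 3.66 and 4.07 for Nrp1-IP over DCC-IP, between -2.53 and -1.82 for DCC-IP over Input, and between 1.20 and 1.61 for Nrp1-IP over Input.

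**Figure D3:**
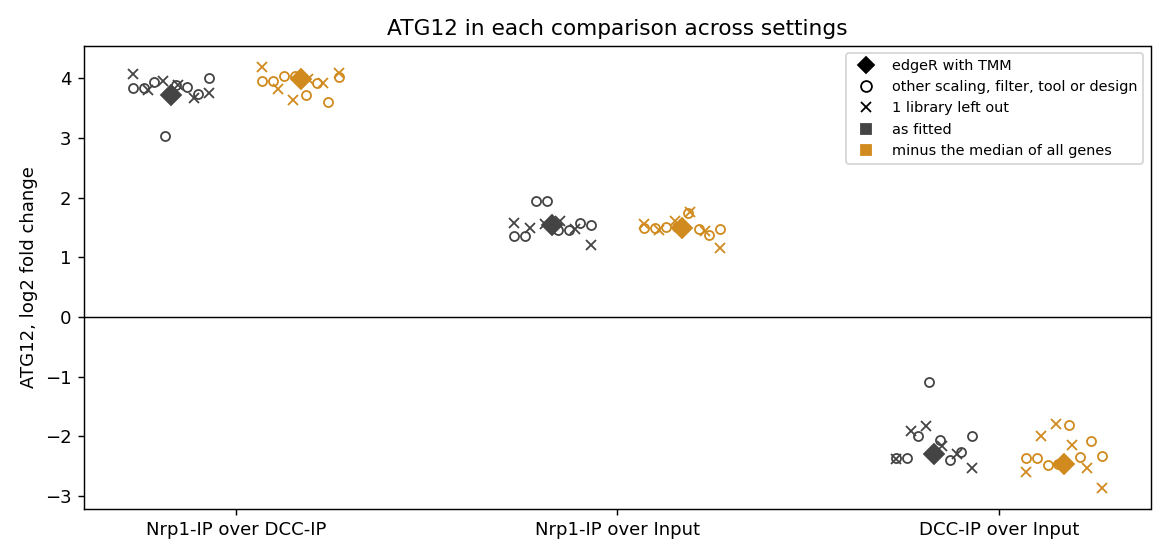
Log2 fold change of ATG12 (y axis) in the 3 comparisons (x axis), with a diamond for edgeR with TMM, circles for other scalings, filters, tools or designs and crosses for fits without 1 library, as fitted (grey) and minus the median of all genes (orange). Nrp1-IP over DCC-IP stays between 3.04 and 4.07, Nrp1-IP over Input between 1.20 and 1.95, and DCC-IP over Input between -2.53 and -1.09 as fitted.

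In RefSeq the protein-coding neighbours of ATG12 are CDO1 and AP3S1, and neither overlaps it. AP3S1, a subunit of the AP-3 sorting complex, had at most 31 counts in a library. An uncharacterised noncoding RNA locus does overlap ATG12 in RefSeq. The strand setting of the counting is not given in the sources used here, so reads of such a partner cannot be told apart from reads of ATG12.

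ATG12 took 98.3%, 89.4% and 92.1% of the machinery's counts in DCC-IP replicates 1 to 3, 99.7% to 99.8% in Nrp1-IP and 98.3% to 99.6% in Input. The other 9 genes together had 87, 98 and 215 counts in Nrp1-IP, 76, 175 and 189 in Input and 71, 524 and 370 in DCC-IP. ATG12 and ATG10 were the members over the floor in all 9 libraries. Of the 10 members, 8 passed it in at least 1 library, against 65 of 77 other autophagy genes (84.4%) and 13890 of all 42785 genes (32.5%).

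The filter on low counts left 3 members for Nrp1-IP over DCC-IP (ATG12, ATG7 and ATG10), the same 3 for DCC-IP over Input, and these with ATG3 for Nrp1-IP over Input. ATG5, ATG4B, ATG16L1, MAP1LC3B, GABARAPL1 and GABARAPL2 did not pass that filter in any comparison. They were fitted only in some alternatives, such as without the filter, where 8 of the 9 members besides ATG12 were tested for DCC-IP over Input and 9 for Nrp1-IP over Input, and 0 were called. In the comparison of the receptors, which served to choose ATG12, edgeR called 235 of 6439 genes (3.65%) at an adjusted p under 0.05, and the groups did not overlap for 26.5% of the genes tested. All 3 members tested there had groups that did not overlap after TMM scaling, which is a description only. ATG7 had 0, 1 and 18 counts in DCC-IP and 45, 37 and 56 in Nrp1-IP. It passed the filter through Nrp1-IP, which favoured such a separation. The ATG10 groups did overlap in raw counts and by library size.

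Against Input, none of the other members tested passed the threshold. For DCC-IP over Input, edgeR's quasi-likelihood test without the replicate block called 310 of 6223 genes (4.98%), and 0 of the 2 members tested besides ATG12. The fit with the replicate number as a block is given further below. Neither had an unadjusted p under 0.05, and DESeq2 also called 0. For Nrp1-IP over Input it called 323 of 6501 genes (4.97%) and 0 of the 3 members tested besides ATG12, none of which had an unadjusted p under 0.05. DESeq2 called 0 there as well, with an unadjusted p of 0.049 for ATG10. After TMM scaling, Nrp1-IP and Input did not overlap for ATG12 and ATG10, against 31.5% of all genes tested, and in DCC-IP and Input for ATG12 alone of the 3 members, against 33.3%. For ATG10 the groups did overlap in raw counts and by library size.

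ATG10, which hands ATG12 to ATG5, was the second most counted member and had its highest counts in DCC-IP. Its counts were 25, 61 and 99 in Nrp1-IP, 67, 96 and 107 in Input and 68, 500 and 307 in DCC-IP. The DCC-IP counts spread widely, and replicate 1 lay at the level of the lowest Input library. The means were 5.13 ± 2.58 CPM in Nrp1-IP, 11.2 ± 2.41 CPM in Input and 23.0 ± 16.2 CPM in DCC-IP (SD over 3 libraries).

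For Nrp1-IP over DCC-IP, ATG10 had a log2 fold change of -2.39 (SE 0.89), and -1.50 without DCC-IP replicate 2. For DCC-IP over Input it was 1.25 (SE 0.85, edgeR adjusted p = 0.457), and 0.70 without that library. For Nrp1-IP over Input it was -1.05 (SE 0.58, edgeR adjusted p = 0.347). Neither difference from Input passed the test.

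The counts of ATG10 followed those of RPS23, a ribosomal protein gene next to it in RefSeq, which was singled out after its values were seen. RPS23 had 12, 40 and 54 counts in Nrp1-IP, 38, 40 and 76 in Input and 39, 271 and 170 in DCC-IP. The ratio of ATG10 to RPS23 counts was 2.08, 1.53 and 1.83 in Nrp1-IP, 1.76, 2.40 and 1.41 in Input and 1.74, 1.85 and 1.81 in DCC-IP. The ratio thus lay between 1.41 and 2.40 around a pooled value of 1.80, while the counts of ATG10 themselves ran from 25 to 500. RefSeq lists no overlap between the 2 genes. Its assembly, GRCh38.p14, is not the build of the counts, and whether the 2 genes share reads was not tested.

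**Figure D4:**
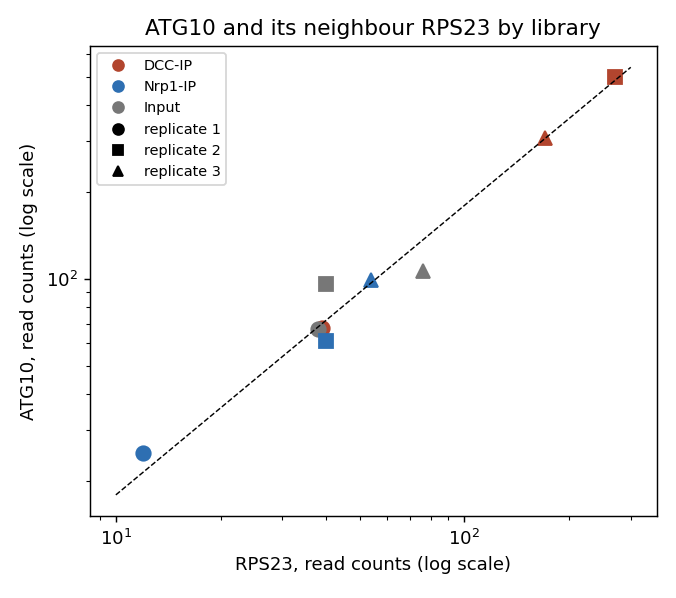
Read counts of ATG10 (y axis, log scale) against those of its neighbour RPS23 (x axis, log scale) in the 9 libraries, with colour for the group, shape for the replicate and a dashed line at the pooled ratio of 1.80. The points lie near the line from 25 ATG10 counts in Nrp1-IP replicate 1 to 500 in DCC-IP replicate 2.

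ATG7, the activating enzyme of both conjugation systems, was scarce in DCC-IP. Its counts were 0, 1 and 18 there, against 8, 32 and 27 in Input. Nrp1-IP had 45, 37 and 56. In raw counts each Nrp1-IP library lay above the other 6, but after TMM scaling Nrp1-IP overlapped with Input. The means were 0.441 ± 0.696, 3.94 ± 0.461 and 2.75 ± 1.50 CPM in DCC-IP, Nrp1-IP and Input (SD over 3 libraries).

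The log2 fold change of ATG7 was 2.97 (SE 1.59) for Nrp1-IP over DCC-IP, and 6.29 without DCC-IP replicate 3. DCC-IP over Input gave -2.30 (SE 1.77, edgeR adjusted p = 0.514), and -5.26 without that library. For Nrp1-IP over Input it was 0.62 (SE 0.72, edgeR adjusted p = 0.683). VGLL4, a transcription cofactor gene whose span overlaps ATG7 in RefSeq, had 138, 42 and 278 counts in Nrp1-IP, 26, 136 and 396 in Input and 3, 38 and 370 in DCC-IP. Overlapping genes can split reads, so the low ATG7 values are uncertain.

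ATG3, which attaches LC3 and GABARAP proteins to lipid, had 13, 0 and 6 counts in Nrp1-IP, 0, 13 and 16 in Input and 3, 9 and 3 in DCC-IP. The groups overlapped, and 4 of the 9 libraries were at or under the floor. Its log2 fold change for Nrp1-IP over Input was -0.99 (SE 1.71, edgeR adjusted p = 0.802). SLC35A5, a sugar transporter gene that overlaps ATG3 in RefSeq, had at most 35 counts in a library.

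ATG5, the partner to which ATG12 is joined, had 1 count in all, in Input replicate 2. ATG16L1, which places the conjugate on the membrane, had 1, 0 and 3 counts in Nrp1-IP, 1, 25 and 24 in Input and 0, 0 and 3 in DCC-IP. Only Input replicates 2 and 3 were thus over the floor. Neither partner of ATG12 in the complex exceeded the floor in any pulldown library.

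The protease ATG4B had 3, 0 and 0 counts in Nrp1-IP, 0, 0 and 7 in Input and 0, 14 and 13 in DCC-IP. MAP1LC3B, which encodes the LC3B protein used as the standard autophagosome marker, had 26 counts in DCC-IP replicate 3, 40 in Nrp1-IP replicate 3, 7 each in Input replicates 2 and 3, and none in the other 5 libraries. Counts of MAP1LC3B in the pulldowns thus came from 1 library each. GABARAPL1 had 10 counts, all in Nrp1-IP replicate 3, and GABARAPL2 had 3 counts over all libraries, at most 1 in each. Both encode proteins of the GABARAP family, which act beside LC3.

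Replicate 3 of each group also had the most members over the floor, with 7 in Input, 6 in Nrp1-IP and 5 in DCC-IP. Replicates 1 and 2 had 3 and 6 in Input, 4 and 3 in Nrp1-IP, and 2 and 4 in DCC-IP. Replicate 3 also had the most genes of all kinds over the floor in DCC-IP and Nrp1-IP, but not in Input. Close relatives of these genes were as low. MAP1LC3B2, a near copy of MAP1LC3B, had 4 counts in Nrp1-IP replicate 3 and 1 in Input replicate 3, GABARAP had 3 counts in Input and none in the pulldowns, and GABARAPL3 had none. Reads that aligned to more than 1 place were 2.83% to 3.83% of a library and were not counted on genes, so values of genes with near copies are uncertain.

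The genes whose pattern over the 9 libraries was most like that of ATG12, by Pearson's r of log2 CPM among 7627 genes, were SSU72 (r = 0.996), DND1 (0.996), RP11-565F19.2 (0.994), PARVB (0.992) and CASP2 (0.987). The points share libraries and depth, and the ranking is a description. SSU72, a phosphatase of RNA polymerase II, had 41683, 56145 and 61775 counts in Nrp1-IP, 18939, 15737 and 11805 in Input and 4886, 4073 and 4794 in DCC-IP. CASP2, a caspase, had 127489 to 165026 counts in Nrp1-IP, 33618 to 59359 in Input and 16734 to 23621 in DCC-IP. None of the 5 belongs to the machinery or to the list of other autophagy genes.

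The rest of the pathway was covered by 77 further genes listed by function. In each comparison 1 or 2 of those tested passed. That share was near the share of all genes tested, which was 3.65%, 4.98% and 4.97% in the order given below. For Nrp1-IP over DCC-IP, 36 were tested, 0 rose and 1 fell (EPG5), where 2.56% of all genes tested rose and 1.09% fell, with a median log2 fold change of 0.38 against -0.27 for all genes tested. For DCC-IP over Input, 36 were tested, 0 rose and 2 fell (TMEM41B and VPS41), where 1.46% of all genes rose and 3.52% fell, with a median of 0.21 against 0.16. For Nrp1-IP over Input, 41 were tested, 1 rose (VPS11) and 1 fell (PHB2), where 1.94% of all genes rose and 3.03% fell, with a median of 0.42 against 0.06. Which genes of the list passed, and so the split into higher and lower calls, depended on the scaling and the fit. Each gene called above kept its sign in every fit of the comparison that called it. Between the receptors, RLE factors, library size and the fit of all 9 libraries each called 1 higher and 0 lower, and TMM after removing MAP1B called 2 higher and 0 lower. The gene called by library size was TMEM41B (edgeR adjusted p = 0.0354). WIPI1, also in the list, had the order of ATG12 in raw counts. It had 1093, 1953 and 1937 in Nrp1-IP, 668, 913 and 620 in Input and 148, 551 and 388 in DCC-IP. With TMM its log2 fold change between the receptors was 2.08 (SE 0.55, edgeR adjusted p = 0.0800). Of the 36 genes tested there, 21 lay above 0 and 15 below. In DCC-IP against Input, library size called 2 higher and 1 lower, and library size without MAP1B called 2 higher and 0 lower.

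Same-numbered libraries of DCC-IP and Input deviated together, and the fit with the replicate number as a block called 715 of 6223 genes (11.5%) there, 3.82% higher and 7.67% lower. In that fit ATG12 was at -2.27, neither of the other 2 members was called, and ATG7 was at -3.72. Of the 36 genes of the wider list, the blocked fit called 4, with TMEM41B and VPS41 lower, and EPG5 and PIK3R4 higher.

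By role, 8 of the 8 genes of the PI3-kinase complex, which marks the site of autophagosome formation with a lipid, were tested for Nrp1-IP over Input. All had a log2 fold change above 0, as did 3368 of the 6501 genes tested, and their median was 1.33 against 0.06, but 0 passed the test. For DCC-IP over Input 6 of 7 lay above 0, with a median of 1.74, and between the receptors 4 of 8 did, with a median of -0.20. Some genes of this complex had Input counts near the floor, with 3, 9 and 8 for PIK3C3, 0, 15 and 4 for NRBF2 and 0, 16 and 9 for BECN1. These passed the filter on low counts mainly through Nrp1-IP, so for them the filter favoured a rise over Input. The values for the other roles are all for Nrp1-IP over Input. For the other end of the pathway, fusion with the lysosome, 11 of 16 genes were tested, with 1 higher, 0 lower and a median of -0.45. Among cargo receptors, 5 of 14 were tested, with 0 higher, 1 lower and a median of -1.62. Of the 5 genes of the ULK initiation complex 3 were tested, and 0 were called. All 3 also lay above 0, with a median of 1.37. Of 12 genes of ATG9, lipid transfer and PI3P effectors 9 were tested, and 0 were called, with 6 above 0 and a median of 0.22. Of 9 further conjugation genes 1 was tested (ATG4D), and of 13 regulators 4, and 0 were called in either. The 4 regulators all lay above 0, with a median of 1.23, so the shift was not particular to the PI3-kinase complex.

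TMEM41B, a membrane protein that moves lipids between the leaflets of the endoplasmic reticulum, had 5854, 5687 and 5356 counts in Nrp1-IP, 9189, 6197 and 9310 in Input and 2354, 2766 and 1821 in DCC-IP. The 3 groups did not overlap after TMM scaling, and unlike ATG12 it was highest in Input. Of all genes tested, 26.5% did not overlap between the receptors, 33.3% between DCC-IP and Input, and 31.5% between Nrp1-IP and Input. By library size without MAP1B, DCC-IP replicate 2 (522 CPM) lay above Nrp1-IP replicate 3 (498 CPM). The log2 fold change of TMEM41B for DCC-IP over Input was -2.24 (SE 0.39, edgeR adjusted p = 0.0162). The adjusted p was 0.0431 without Input replicate 2 and 0.0204 without Input replicate 3, but 0.107 to 0.192 without any of the other 4 libraries. With MAP1B left out of the library size, the log2 fold change was -1.05 and no longer passed the threshold, and with TMM after removing MAP1B the adjusted p was 0.0773.

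VPS41, a subunit of the HOPS complex that tethers autophagosomes to lysosomes, showed the same order at lower counts. It had 1401, 1142 and 1024 counts in Nrp1-IP, 1920, 1421 and 1845 in Input and 663, 590 and 586 in DCC-IP. The log2 fold change for DCC-IP over Input was -1.91 (SE 0.45, edgeR adjusted p = 0.0479, 0.0116 with the block). The adjusted p was 0.0905 to 0.336 when any of the 6 libraries was left out. With MAP1B left out of the library size, the log2 fold change was -0.73 (adjusted p = 0.294). The DCC-IP libraries (94.7 to 120 CPM) then overlapped with those of Nrp1-IP (95.1 to 148 CPM). The call was also lost with RLE factors, by library size, without the filter and with TMM after removing MAP1B, with an adjusted p of at least 0.0659.

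EPG5, a tethering factor for fusion with the lysosome, was higher in DCC-IP than in Nrp1-IP. It had 1200, 1752 and 1591 counts in Nrp1-IP, 987, 1014 and 1233 in Input and 7082, 2840 and 5617 in DCC-IP. Every DCC-IP library lay above the other 6. The log2 fold change for Nrp1-IP over DCC-IP was -1.94 (SE 0.45, edgeR adjusted p = 0.0494). The adjusted p was 0.0418 without DCC-IP replicate 2 and 0.0923 to 0.424 without any of the other 5 libraries. The call was also lost with RLE factors, by library size, with all 9 libraries in one fit and with TMM after removing MAP1B (adjusted p 0.0552 to 0.0818). Against Input the log2 fold change of DCC-IP was 1.86 (SE 0.47, edgeR adjusted p = 0.0563, 0.0173 with the block).

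PIK3R4, the regulatory subunit of the PI3-kinase complex, missed the threshold without the replicate block and is named because the fit with the block called it. Both fits used TMM. It had 195, 191 and 199 counts in Nrp1-IP, 90, 88 and 83 in Input and 1085, 412 and 541 in DCC-IP. Against Input the log2 fold change of DCC-IP was 2.58 (SE 0.68, edgeR adjusted p = 0.0647), and with the block 2.42 (adjusted p = 0.0409). It also passed with DESeq2, by library size with or without MAP1B, and with all 9 libraries in one fit (adjusted p 0.00900 to 0.0471), but not with RLE factors, without the filter or with TMM after removing MAP1B (0.0632 to 0.0955), nor without any 1 library. The DCC-IP libraries lay above all others.

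VPS11, a core subunit of HOPS, was higher in Nrp1-IP than in Input, with 282, 155 and 182 counts against 18, 31 and 17. DCC-IP had 3, 152 and 98 counts. The log2 fold change for Nrp1-IP over Input was 2.84 (SE 0.53, edgeR adjusted p = 0.0295), and the adjusted p was 0.0519 to 0.169 when any 1 of the 6 libraries was left out and 0.281 with all 9 libraries in one fit.

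PHB2, a mitochondrial inner membrane protein that acts as a receptor for mitophagy, had 0, 2 and 7 counts in Nrp1-IP and 27, 246 and 73 in Input, with 39, 0 and 65 in DCC-IP. The log2 fold change for Nrp1-IP over Input was -5.61 (SE 1.23, edgeR adjusted p = 0.0443), a size that rests on Nrp1-IP libraries near the floor. By library size, Nrp1-IP was at 0, 0.199 and 0.640 CPM and Input at 2.53, 24.5 and 8.26 CPM. Only the Input libraries thus carried PHB2 through the filter on low counts, so the filter favoured a fall. The adjusted p was 0.0433 without Input replicate 3 and 0.0585 to 0.226 without any of the other 5 libraries. The call was also lost by library size with or without MAP1B (0.0542 and 0.0535) and with all 9 libraries in one fit (0.168).

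**Figure D5:**
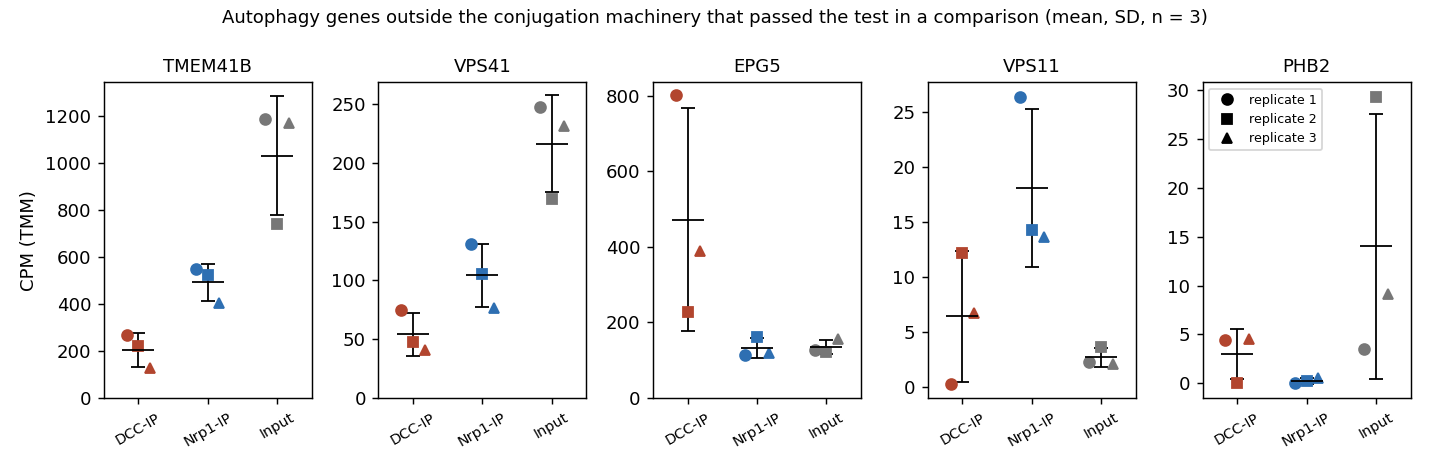
CPM after TMM scaling (y axis, starting near 0 and separate for each gene) of the 5 autophagy genes outside the machinery that passed the test without the replicate block in a comparison, by group (x axis), with a point per library and lines for the mean and SD (n = 3). TMEM41B and VPS41 are lowest in DCC-IP and highest in Input, EPG5 is highest in DCC-IP, VPS11 is highest in Nrp1-IP on average, and PHB2 is near 0 in Nrp1-IP.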

How the data were processed

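RNA from 9 SH-SY5Y samples (3 each of DCC-IP, Nrp1-IP and Input, grouped by the antibody in the labels) was sequenced. The authors aligned reads with HISAT2 2.1.0 and deposited raw gene counts from HTSeq 0.11.0, with no normalization. The submitters' processing notes also list bcl2fastq and hg19; the annotation is not given in the sources used here. HTSeq summary lines (68.7% to 70.8% of reads) were left out. The members and gene lists were chosen with earlier results of these data known.

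Each pair of groups was fitted on its 6 libraries in edgeR 4.0.16 (R 4.3.3) with filterByExpr at a minimum count of 10, TMM, glmQLFit and glmQLFTest, with Benjamini-Hochberg adjustment over all genes tested and a threshold of 0.05. CPM across the 9 libraries came from TMM factors of 0.726 to 1.39. A standard error is the log2 fold change divided by the square root of F. The fits were also run on simulated counts without replicate pairing, and the outcome of that run is not given here. Replicates differed beyond counting noise (chi-square 48.6 to 232 times its degrees of freedom). For DCC-IP over Input, deviations of same-numbered libraries from their group means correlated at 0.117 to 0.421, and 5 of 6 libraries correlated best with their own number. The numbers from the labels were taken to pair them in the fit with the replicate block, and the main fit was not paired. The other comparisons did not meet the rule of every correlation over 0.1 and were not taken as paired. Nrp1-IP and DCC-IP missed it narrowly, with a lowest value of 0.0989.

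Alternatives were DESeq2 1.42.0, RLE factors, library size with and without MAP1B, no filter, all 9 libraries in one fit, the replicate block, each library left out in turn, and TMM with MAP1B removed, which was chosen after seeing the data. Named genes were the members, their close relatives and overlapping genes, the 5 genes most like ATG12, MAP1B, and up to 8 called genes of the wider list per comparison and direction. RPS23, AP3S1, PIK3R4 and WIPI1 were added after their values were seen. RefSeq names and neighbours come from GRCh38.p14, so no coordinates are printed. No sequence is printed.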

Additional observations from a re-analysis of the deposited data

How the results depend on the processing

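The order of ATG12 (Nrp1-IP, Input, DCC-IP) and the direction of its 3 log2 fold changes held under every alternative run. No other member that a fit tested was called against Input. With the filter, fits tested 2 to 5 of those 9 for DCC-IP over Input and 3 or 4 for Nrp1-IP over Input. Without the filter 8 and 9 were tested. Members left out by the filter could not be called. Counts of called genes moved. For Nrp1-IP over DCC-IP (235 of all genes and 1 of the wider list) they were 705 and 3 with DESeq2, 443 and 2 by library size without MAP1B, 484 and 2 without the filter, 369 and 2 with the replicate block, and 2 of the wider list with TMM after removing MAP1B, an alternative chosen after seeing the data. For DCC-IP over Input (310 and 2) they were 972 and 4 with DESeq2, 696 by library size without MAP1B, 1 of the wider list with RLE factors, 780 and 4 with all 9 libraries in one fit, 715 and 4 with the block, and 73 and 0 with TMM after removing MAP1B. For Nrp1-IP over Input (323 and 2) they were 949 and 7 with DESeq2, 518 and 1 by library size, 520 and 1 by library size without MAP1B, 882 and 5 without the filter, 125 and 0 with all 9 libraries in one fit, and 556 and 4 with the block. The cause of these shifts was not tested. Without 1 library, calls ranged from 74 to 346, 0 to 250 and 0 to 441 over all genes and from 0 to 2, 0 to 1 and 0 to 1 in the wider list. Against Input they stayed at 0 (lowest 0, highest 0) for those of the 9 members that were tested.

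Scaling moved the balance of calls. Higher and lower calls were 165 and 70 for Nrp1-IP over DCC-IP but 106 and 337 by library size without MAP1B, 91 and 219 for DCC-IP over Input but 623 and 73 without MAP1B and 141 and 167 by library size, and 126 and 197 for Nrp1-IP over Input but 351 and 167 by library size. The near-zero EPG5 log2 fold change for Nrp1-IP over Input (0.03) turned to -0.15 with DESeq2 and with RLE factors, -0.0777 without the filter and -0.0378 with all 9 libraries, and lay between -0.138 and 0.131 without 1 library, below 0 without Nrp1-IP replicate 2, Input replicate 1 or Input replicate 2. Same-numbered libraries correlated at 0.0989 to 0.361 for Nrp1-IP and DCC-IP, where 6 of 6 libraries correlated best with their own number, and at -0.00436 to 0.365 for Nrp1-IP and Input, where 4 of 6 did. The first is a hint of pairing from the data and not from the design, and neither was taken as paired. With the block ATG12 was at 3.73 between the receptors, at -2.27 for DCC-IP against Input and at 1.57 for Nrp1-IP against Input. The members other than ATG12, ATG10 and ATG7 had at most 80 counts over all 9 libraries, so little can be said of them. The reason for these low counts was not tested.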
